A study of Homo sapiens with 2 samples.

Results

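Interferon-stimulated genes are the genes that cells switch on when interferon binds its receptors. Their levels were compared between HSC-3 cells grown on Myogel and HSC-3 cells grown on plastic. A list of 40 such genes was used, and 39 of them were measured out of 19775 genes on the array. A member was measured when a probe set was annotated with its symbol alone. Where several were, the brightest by mean log2 value was taken for the gene. STAT2, the DNA-binding partner in the interferon-activated factor ISGF3, is unnamed here and was not analysed. Another 2 probe sets were left out because they are annotated to a member together with another gene, one to IFITM1 and IFITM2 and one to IRF9 and RNF31.

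HSC-3 is an established cell line of an aggressive squamous cell carcinoma of the human tongue. Both samples were of a form of the line marked with red fluorescent protein, made with a lentivirus that also brings in a non-coding control and with puromycin as the selection, and both were kept in medium with serum, ascorbic acid and hydrocortisone. One surface was a coating of Myogel, a gelatinous protein extract of human uterine leiomyoma, and the other was uncoated culture plastic. On each surface 90000 cells were seeded, RNA of 3 wells was harvested the next day and pooled in equal amounts, and each pool was measured on a single Affymetrix U133 Plus 2.0 array. The treatment label names uncoated wells for the Myogel sample too, and the titles, the source names and the methods of the study set the samples apart. With 1 array per surface no difference has a replicate check, no p-value is given, and a difference in amount per cell cannot be told apart from a difference in the share of cells that express a gene.

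Type I and type III interferons signal through JAK kinases to ISGF3, which binds the interferon-stimulated response element (ISRE) in the promoters of its target genes. Type II interferon acts mainly through another DNA element, the gamma-activated site (GAS). The targets include enzymes that sense double-stranded RNA, proteins that block virus entry, translation or release, and the ubiquitin-like protein ISG15. Many epithelial and carcinoma cells keep part of this programme on at a low level without infection.

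The promoters of the listed genes carried the ISRE more often than promoters in general. The list holds genes known to be induced by interferon, which acts through the ISRE and the GAS. The difference is therefore not independent of the choice of the list, and it does not describe these samples. RefSeq promoter sequences (build GRCh38.p14, 300 bases, of which 250 lie before the gene start and 50 after it) were found for 31 members. The ISRE core GAAANNGAAA, or TTTCNNTTTC when read on the other strand, was present in 21 of these 31 (67.7%), against 996 of 27305 promoters of the same length (3.65%). The GAS core TTCNNNGAA, which reads the same on both strands and can share bases with an ISRE match, was present in 9 of the 31 (29.0%), against 2152 promoters (7.88%). Both cores were present in 5 members, and 14 members had at least 2 ISRE matches. In 20 of the 21 members an ISRE match began before the gene start, by at most 164 bases, and in MX1 the match began 11 bases after it. A match is a description of the letters in this window and not a binding site.

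The stretches below show the ISRE matches of 6 members, chosen to set genes of unlike fold change side by side. BST2 and IFI44L were past FC 1.5 on Myogel, and OAS3 (log2 FC -0.55), DDX60 (-0.34), ISG15 (0.03) and IFI44 (0.05) were within it. For OAS3 and DDX60, 1 of 2 matches is printed. Each is written 5′ to 3′ on the strand of its gene, and capitals mark the match.
BST2: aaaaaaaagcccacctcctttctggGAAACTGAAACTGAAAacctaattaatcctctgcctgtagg
IFI44L: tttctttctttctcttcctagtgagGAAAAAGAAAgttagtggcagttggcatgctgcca
OAS3: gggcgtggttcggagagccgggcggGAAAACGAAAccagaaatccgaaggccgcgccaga
DDX60: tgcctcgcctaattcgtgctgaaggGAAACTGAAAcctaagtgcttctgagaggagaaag
ISG15: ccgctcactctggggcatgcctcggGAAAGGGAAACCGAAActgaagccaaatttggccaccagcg
IFI44: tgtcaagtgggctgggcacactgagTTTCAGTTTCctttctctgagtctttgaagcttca
The BST2 stretch lies at chr19:17405720-17405785 on the minus strand, and those of BST2 and ISG15 hold 2 overlapping matches each. The IFI44L stretch lies at chr1:78620350-78620409 on the plus strand, and the same 60 letters occur a second time in its promoter at chr1:78620259-78620318. The OAS3 stretch lies at chr12:112938437-112938496 (plus strand), 12 bases before the gene start, and a second match begins 143 bases before it. The DDX60 stretch lies at chr4:168318806-168318865 (minus strand), 88 bases before the gene start, and its second match begins 53 bases before it. The others are ISG15 at chr1:1013359-1013424 (plus strand) and IFI44 at chr1:78649746-78649805 (plus strand). The 21 genes with an ISRE match had a median log2 fold change of -0.13 (lowest -0.55, highest 6.22), and the 9 measured genes without one had a median of -0.21 (lowest -0.39, highest 0.09).

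The interferon-stimulated genes had nearly the same values on both surfaces. The fold change (FC) is the value on Myogel over the value on plastic, both as deposited, and FC 1.5 or more in either direction was used as the threshold. The methods of the study name this fold change and no further criterion. The paper reports a far smaller share of genes past it than the shares found here, so the calls made here are not the list of the study. Of the 39 measured members 2 were higher on Myogel by this threshold, BST2 and IFI44L, against 9.71% of all genes, and 1 was lower, GBP2, against 17.5% of all genes. The other 36 lay within FC 1.5. Dim probe sets vary more, and for this reason the genes were also taken whose higher value reached the median of all values, 56.1 linear units. In these 37 members BST2 alone was higher and GBP2 alone was lower, against 3.57% and 6.97% of the genes with such signal. BST2 reached this signal only through its Myogel value.

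The median log2 FC of the members was -0.14, against -0.07 over all genes, and the median size of the log2 FC in either direction was 0.19, against 0.25. At or above the median signal the median was -0.16 for the members and -0.05 for the genes. The median size at this signal was 0.19 for the members and 0.17 for the genes. Values below 0 were found for 25 of 39 members (64.1%) and for 58.7% of all genes, and at or above the median signal for 25 of 37 members (67.6%) and for 58.0% of the genes. With a threshold of FC 1.2, 2 members were higher (18.1% of all genes) and 9 were lower (30.8% of all genes). The shares of members past FC 1.2 (5.13% and 23.1%) lay below those of all genes, while the shares of members below 0 lay above them. The shares past FC 1.2 were not matched for signal. Between alternative scalings of the arrays the median of all probe sets moved by 0.11 on the log2 scale. The members' median was below the median of all genes under quantile normalization (-0.11 against 0.00) and loess centring (-0.11 against 0.01). Setting the median log2 ratio to 0 shifts every gene by the same amount and could not change this order (-0.037 against 0.037).

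**Figure D1:**
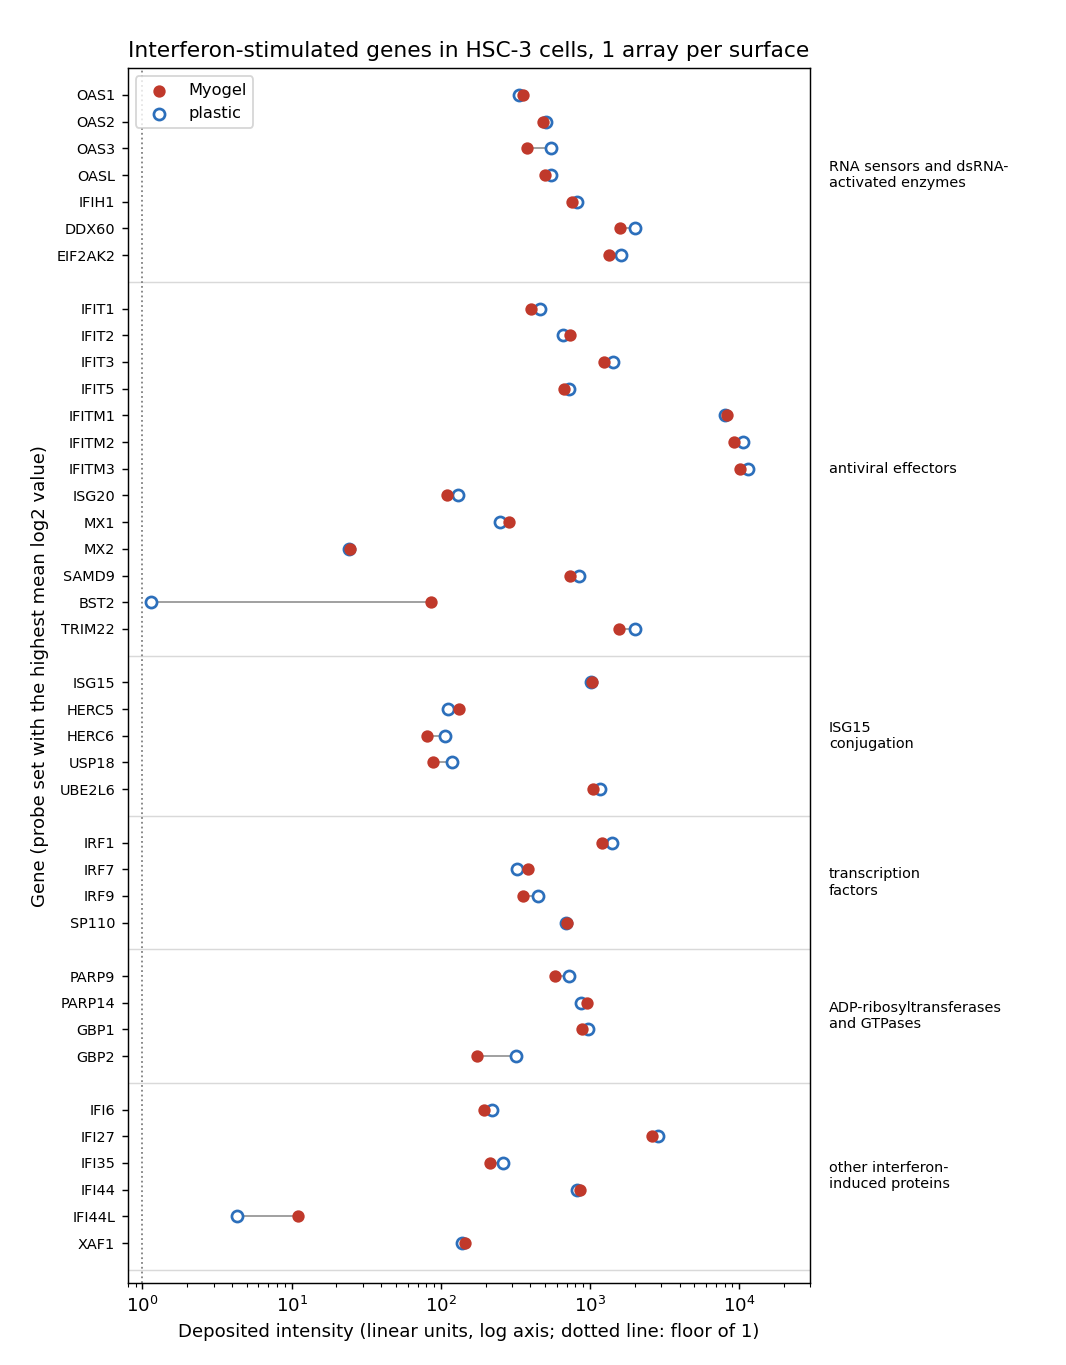
Deposited intensity (x axis, linear units on a log scale) of the 39 measured interferon-stimulated genes (y axis, grouped by role), with 1 point for each array, filled red for Myogel and open blue for plastic; the dotted line is the floor of 1. The 2 points of most genes nearly coincide, and the gap is widest for BST2 (85.9 on Myogel, 1.15 on plastic).

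As a measure of spread for single genes, the central 95% of the log2 FCs of the 1000 probe sets nearest in signal was taken. BST2 lay above its range (1.88% of all genes did so) and GBP2 lay below its range (1.61% of all genes), while the other 37 members lay inside. With the added requirement that the values differ by 100 linear units or more, no member was higher (0.445% of all genes) and GBP2 was lower (0.627% of all genes).

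**Figure D2:**
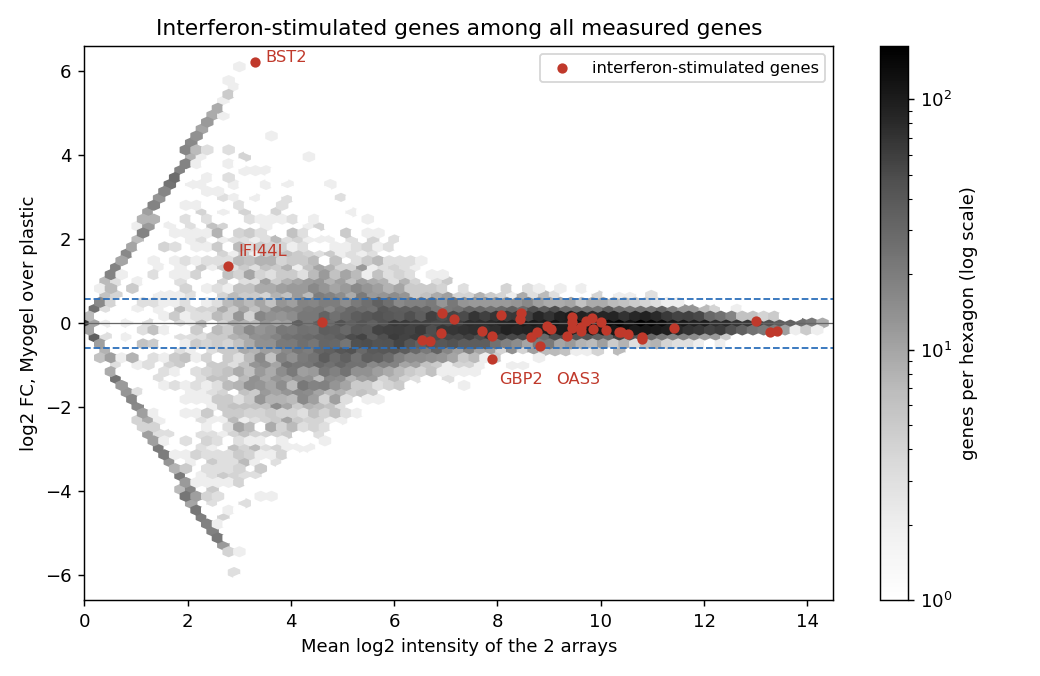
Fold changes, as log2 of Myogel over plastic (y axis), against the mean log2 intensity of the 2 arrays (x axis), with red points for the interferon-stimulated genes and grey hexagons for the number of measured genes; genes beyond the axes are not shown. Dashed blue lines mark FC 1.5, and outside them lie BST2 and IFI44L, both at low mean signal, and GBP2, while OAS3 lies just inside.

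By the brightest probe set, none of the 7 enzymes and helicases that are set off by viral RNA passed FC 1.5 or left the range for its signal. Other probe sets of OAS1, OAS2, OAS3 and IFIH1 passed FC 1.5 and are given below. Their median log2 FC was -0.14, equal to that of all members, and 6 of 7 were below 0, as were 58.7% of all genes. OAS1, OAS2 and OAS3 make the messenger 2-5A, which activates the nuclease RNase L. OAS3 had 377 on Myogel and 550 on plastic, a 1.46-fold lower value that lay just inside the threshold and inside the range for its signal (-0.62 to 0.61 on the log2 scale). OAS1 had 358 on Myogel and 336 on plastic, and OAS2 had 487 on Myogel and 510 on plastic. OASL, a relative that does not make the messenger, had 500 on Myogel and 552 on plastic. By the brightest probe set OAS1 was above 0 and OAS2, OAS3 and OASL were below it, all inside the ranges for their signal. A second probe set of OAS1, given below, was 1.53-fold lower on Myogel. The direction of OAS1 therefore depended on the probe set.

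EIF2AK2, the kinase PKR that halts translation on binding double-stranded RNA, had 1345 on Myogel and 1609 on plastic. IFIH1, the cytosolic RNA sensor MDA5, had 764 on Myogel and 815 on plastic. DDX60, a helicase linked to RNA sensing, had 1585 on Myogel and 2002 on plastic (log2 FC -0.34), inside its range of -0.42 to 0.40.

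Among the 13 genes for proteins that act on viral RNA, entry or release, 12 lay within FC 1.5 by their brightest probe set, and BST2 was the exception. BST2, or tetherin, holds budding virus particles at the cell surface. Its single probe set had 85.9 on Myogel and 1.15 on plastic, close to the floor of 1. The ratio of 74.7 has no fixed size for this reason, and the log2 FC of 6.22 became 2.57 when 16 units were added to both values and 1.41 when 50 were added. Values under 2 on plastic with 50 or more on Myogel, limits chosen after the data were seen, were held by 11 genes, and the opposite pattern by 10 genes. BST2 was the only member among these 21 genes.

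IFITM1, IFITM2 and IFITM3 place membrane proteins where viruses fuse with the cell, and they were the 3 brightest members. IFITM3 had 10152 on Myogel and 11558 on plastic, and IFITM2 had 9217 on Myogel and 10639 on plastic. IFITM1 had 8362 on Myogel and 8077 on plastic. The 3 sequences are closely related, the probe sets of IFITM2 and IFITM3 are of the _x_at type, which can bind several transcripts, and their values are uncertain as to which gene they measure.

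The IFIT proteins bind viral RNA and block its translation. IFIT3 had 1251 on Myogel and 1439 on plastic, IFIT1 had 403 on Myogel and 464 on plastic, and IFIT5 had 673 on Myogel and 728 on plastic. IFIT2 had 733 on Myogel and 661 on plastic, and was the member of the family with a value above 0 (log2 FC 0.15).

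The antiviral GTPase MX1 had 286 on Myogel and 250.4 on plastic, and its relative MX2 was dim on both (24.6 on Myogel, 24.2 on plastic). TRIM22, a ubiquitin ligase that restricts several viruses, had 1557 on Myogel and 2018 on plastic, with a log2 FC of -0.37 inside its range of -0.42 to 0.40. SAMD9, a restriction factor for poxviruses, had 735 on Myogel and 841 on plastic, and the exonuclease gene ISG20 had 109.7 on Myogel and 129.8 on plastic.

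The genes for ISG15 and for its attachment to target proteins were measured on both surfaces and stayed within FC 1.5. ISG15 itself had 1042 on Myogel and 1017 on plastic, a log2 FC of 0.03. UBE2L6, the enzyme that carries ISG15 to its ligase, had 1044 on Myogel and 1169 on plastic. HERC5, the main human ligase for ISG15, had 133.02 on Myogel and 112.40 on plastic.

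USP18, which removes ISG15 and also dampens the type I receptor, had 88.9 on Myogel and 119.8 on plastic. HERC6, a relative of HERC5, had 81.0 on Myogel and 106 on plastic. These log2 FCs of -0.43 and -0.39 were among the larger ones in the list. Both lay inside the ranges for their signal, which reached -1.02 and -1.07 at their lower ends.

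The 4 measured transcriptional regulators went both ways within FC 1.5 by their brightest probe set. IRF9, which with STAT proteins forms ISGF3, had 357 on Myogel and 447 on plastic, and IRF1, a factor induced by type II interferon, had 1214 on Myogel and 1406 on plastic. IRF7, which drives the interferon genes themselves, had 385 on Myogel and 325 on plastic. SP110, a nuclear body protein, had 700.4 on Myogel and 692 on plastic.

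GBP2 was the only member lower by FC 1.5 or more when the brightest probe set stood for the gene. It encodes a guanylate-binding GTPase that is induced by type II interferon and acts against intracellular pathogens. Its value was 176 on Myogel and 320.1 on plastic, which is 1.82-fold lower (log2 FC -0.86, range for its signal -0.73 to 0.65). Its other probe set gave 99.4 on Myogel and 104.5 on plastic, a log2 FC of -0.07, and the mean over both was -0.47, which is within FC 1.5. By this mean OAS3 was the lower member instead, with a log2 FC of -0.88. GBP1, of the same family, had 886 on Myogel and 969 on plastic. PARP9 and PARP14, ADP-ribosyltransferase family members that modulate interferon signaling, had 586 and 952 on Myogel, against 722 and 877 on plastic.

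The remaining members gave no common direction, with 3 above and 3 below 0. IFI27, a mitochondrial protein that is often among the most strongly induced interferon targets, had 2618 on Myogel and 2862 on plastic. IFI6, a small membrane protein related to IFI27, had 195 on Myogel and 221 on plastic, and IFI35 had 213 on Myogel and 263 on plastic. IFI44 had 858 on Myogel and 826 on plastic. IFI44L, a relative of IFI44, passed FC 1.5 with only 11.1 on Myogel and 4.33 on plastic, and the range for probe sets of that signal ran from -5.51 to 5.49. XAF1, an inhibitor of XIAP, had 146 on Myogel and 138 on plastic.

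For 20 of the 39 members a second probe set measures the same gene, and these gave a check within the arrays. The log2 FCs of the 2 brightest probe sets had the same sign for 13 of 20 members (65.0%), against 54.5% of all genes with at least 2 probe sets, and for 11 of 17 members (64.7%) when both reached the median signal, against 56.5% of such genes. They differed by a median of 0.24, against 0.40 over all genes with at least 2 probe sets, without matching for signal. EIF2AK2, IFI44, ISG20, OAS1, OAS2, PARP9, SP110 and XAF1 had probe sets of opposite sign that both reached this signal.

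When any probe set could count, 5 members had a higher value past FC 1.5, against 22.1% of all genes. A lower one was held by 5 members, against 36.2% of all genes. Each count was 12.8% of the members, below the share over all genes, but these shares were not matched for signal. The median signal was reached by 37 of 39 members and by 13262 of 19775 genes, and dim probe sets vary more. A second probe set of IFIT2 had 306 on Myogel and 124 on plastic, 2.47-fold higher and above the range for its signal (-0.82 to 0.65), while the brightest probe set of this gene had a log2 FC of 0.15. The dimmest of 3 probe sets of OAS2 had 106 on Myogel and 39.1 on plastic. Its log2 FC of 1.44 lay above the range for its signal (-1.16 to 1.37), and the other 2 were below 0 (-0.07 and -0.30). A dim probe set of IFIH1 had 10.8 on Myogel and 4.07 on plastic. Lower values were found for second or later probe sets of OAS3 (30.5 on Myogel, 70.6 on plastic), OAS1 (158 on Myogel, 241 on plastic), SP110 (152 on Myogel, 269 on plastic) and GBP1 (30.2 on Myogel, 56.7 on plastic). The log2 FC of this SP110 probe set, -0.822, lay just below the range for its signal (-0.816 to 0.604). All probe sets were below 0 for OAS3 (log2 FCs of -0.55 and -1.21) and for GBP1 (-0.13, -0.24, -0.30 and -0.91), while OAS1 and SP110 also had probe sets above 0.

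**Figure D3:**
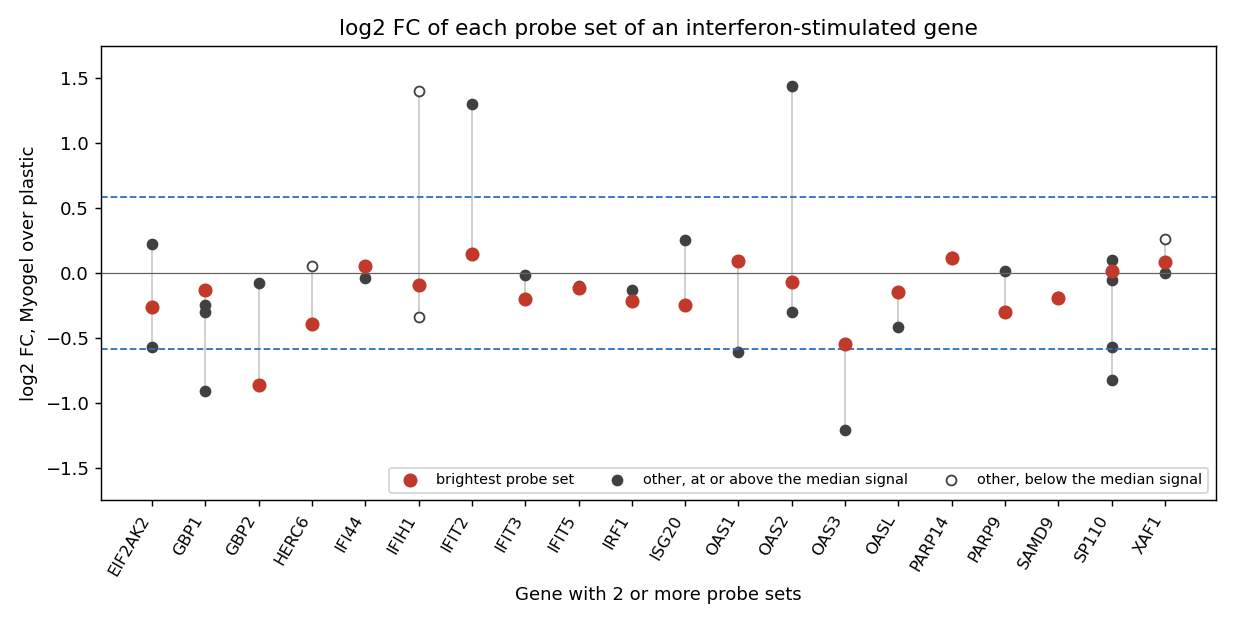
Fold changes, as log2 of Myogel over plastic (y axis), of each probe set of the 20 interferon-stimulated genes that have at least 2 (x axis). Red points are the brightest probe sets, black points the others at or above the median signal and open points those below it, dashed blue lines mark FC 1.5, and the widest gaps from the brightest probe set are those of OAS2, IFIH1 and IFIT2.

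The genes that make, receive and relay interferon were described from a list of 45 pathway genes outside the members, of which 42 were measured. Past FC 1.5 lay 7 of them, 5 with higher and 2 with lower values on Myogel (9.71% and 17.5% of all genes), and the median log2 FC was -0.02. The interferon genes were dim, with values of 1.00 to 72.8 on Myogel and 1.00 to 45.6 on plastic, and none lay outside the range for its signal. IFNB1, the main type I interferon of non-immune cells, had 7.12 on Myogel and was at the floor of 1.00 on plastic, and IFNG, the type II interferon, had 19.0 on Myogel and was at the floor of 1.00 on plastic. IFNL1, a type III interferon that acts on epithelium, had 72.8 on Myogel and 45.6 on plastic. IFNE, an interferon of mucosal epithelium, had 20.6 on Myogel and 5.80 on plastic, and IFNK, the keratinocyte interferon, had 15.5 on Myogel and 34.3 on plastic.

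All 6 receptor chains were within FC 1.5. IFNAR1 and IFNAR2, the type I receptor, had 194 and 911 on Myogel, against 222 and 1040 on plastic. IFNGR1, of the type II receptor, had 2560 on Myogel and 2858 on plastic. JAK1, the kinase shared by the 3 receptor types, had 2383 on Myogel and 1763 on plastic, a log2 FC of 0.44 above the range for its signal (-0.41 to 0.38) but within FC 1.5. It was the only one of the 42 measured pathway genes outside its range, while 1.88% of all genes lay above theirs and 1.61% below. JAK1 has 5 probe sets, and only the brightest was examined.

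Of the 10 sensors and adaptors upstream of interferon, STING1, which relays the sensing of cytosolic DNA, was higher (157.6 on Myogel, 103.95 on plastic, log2 FC 0.60) and inside its range of -0.92 to 0.69. RIGI, the cytosolic sensor of viral RNA ends, had 643 on Myogel and 505 on plastic. The 6 negative regulators lay within FC 1.5, among them SOCS3 with 489 on Myogel and 382 on plastic.

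Genes of MHC class I and of the immunoproteasome, which interferon also induces, had a median log2 FC of -0.12 in the 8 that were measured. B2M, the light chain of class I, had 12875 on Myogel and 13518 on plastic, and HLA-B had 3311 on Myogel and 4112 on plastic. NLRC5, the activator of class I genes, was the only one past FC 1.5, with 64.7 on Myogel and 106 on plastic (log2 FC -0.72, range for its signal -1.08 to 0.96).

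**Figure D4:**
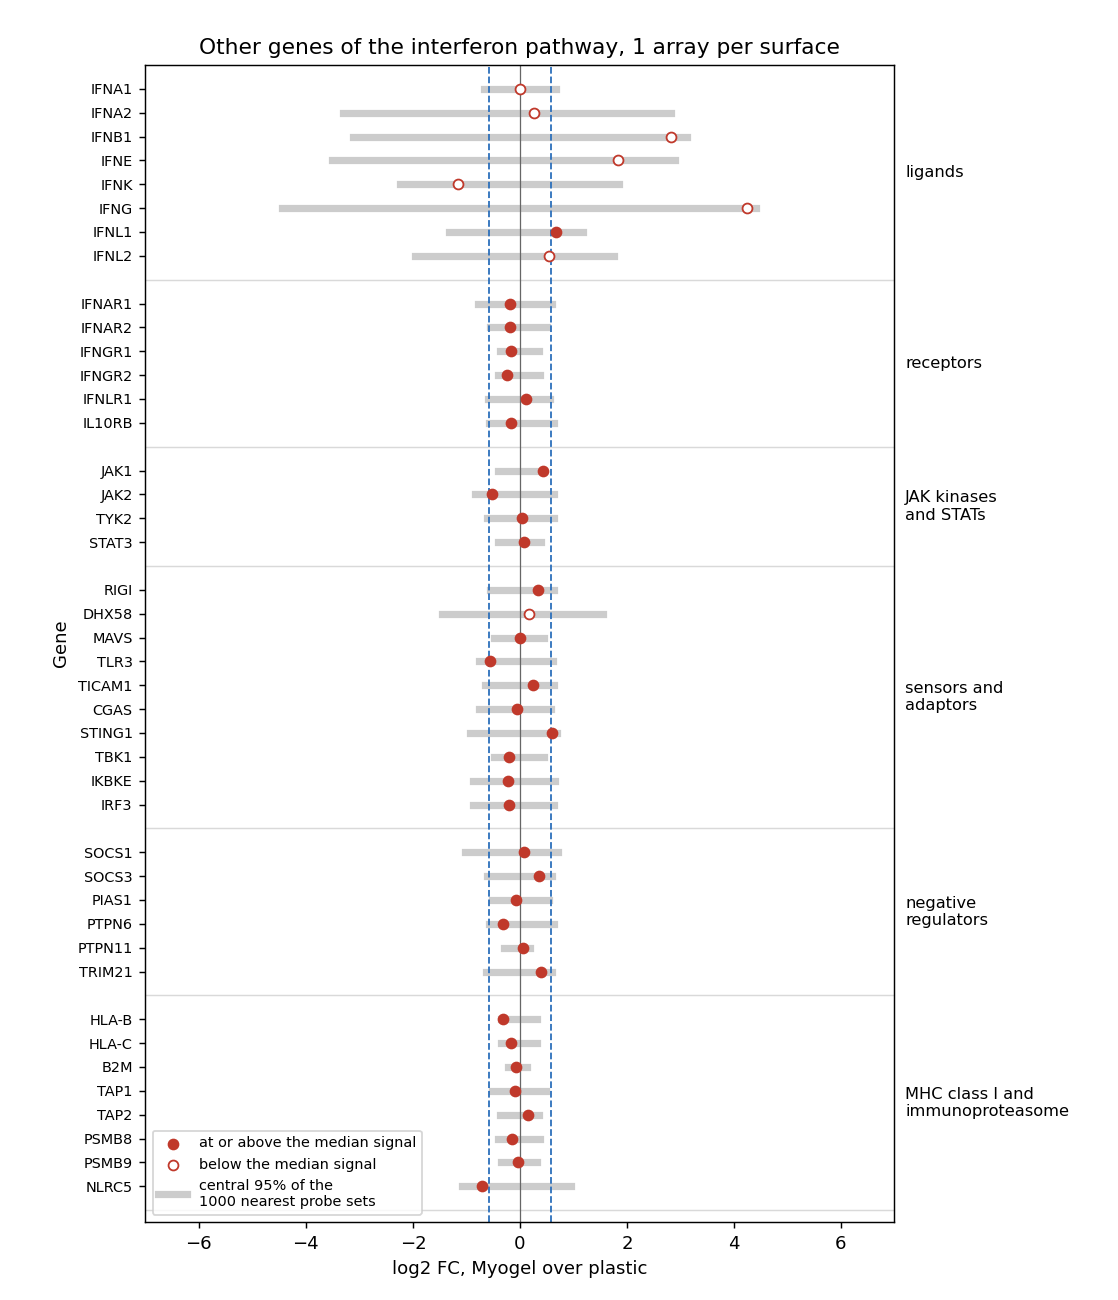
The log2 FC of Myogel over plastic (x axis) of the 42 measured pathway genes outside the members (y axis, by role), filled at or above the median signal and open below it, with grey bars for the central 95% of the 1000 probe sets nearest in signal and dashed blue lines at FC 1.5. JAK1 is the only point outside its bar (0.44), and the bars of the dim interferon genes are the widest.

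The labelled cell type was checked on 5 measured epithelial markers, KRT5, KRT14, CDH1, EPCAM and SFN, which had values of 3993 to 18224 on Myogel and 4385 to 18856 on plastic. KRT5 had a log2 FC of -0.234, just below the range for its signal (-0.229 to 0.141), and the other 4 lay inside theirs. Of the markers of other cell types, 5 of 9 for leukocytes, 4 of 6 for smooth muscle, 2 of 5 for fibroblasts and 3 of 4 for endothelium reached the median signal. Of all 19775 genes, 13262 reached it. COL1A1, a fibroblast collagen, had 454 on Myogel and 431 on plastic, CD14, a monocyte marker, had 302 on Myogel and 298 on plastic, and ACTG2, a smooth muscle actin, had 272 on Myogel and 240 on plastic. The 9 leukocyte markers summed to 671 on Myogel and 763 on plastic, with 0 higher and 2 lower by FC 1.5, and PTPRC, which defines leukocytes, had 20.96 on Myogel and 27.16 on plastic. The 6 smooth muscle markers summed to 630 on Myogel and 648 on plastic, with 1 higher and 2 lower. The 5 fibroblast markers summed to 643 on Myogel and 634 on plastic, with 1 higher and 0 lower. The 4 endothelial markers summed to 291 on Myogel and 394 on plastic, with 0 higher and 3 lower. By the same threshold 9.71% of all genes were higher and 17.5% were lower. Over all probe sets the median was 52.5 on Myogel and 59.7 on plastic, and 4.73% on Myogel and 4.42% on plastic lay at the floor.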

How the data were processed

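RNA of HSC-3 cells on Myogel and on plastic was measured on 1 array per surface. The deposited intensity of each probe set came from dChip, run by the authors. Its version, its model and any scaling of the arrays were not given in the sources used here. Intensities are linear with a floor of 1 and cover 54613 probe sets and 62 controls, which were left out. Gene names came from the platform's annotation, with symbols updated through RefSeq gene identifiers (GRCh38.p14): 41091 probe sets had 1 symbol, 11721 are unnamed here, and the 1801 with several symbols were left unnamed. FC was computed without further scaling, and no test was possible. Promoter sequences are those of RefSeq. The members and the lists were chosen with earlier results of these data known, and values are given for members with FC 1.5 or more, the 10 brightest, those whose probe sets disagree, and the rest by role. The number of arrays limits the precision. Alternatives were quantile normalization, loess centring (span 0.3), a median log2 ratio of 0, offsets of 16 and 50, a filter on low signal, FC 1.2 or FC 2 as the threshold, a minimal difference of 100 linear units, and other choices of probe set. Calculations used pandas 2.3.3, numpy 2.4.6 and statsmodels 0.14.6, figures used matplotlib 3.10.9, all under Python 3.11.15, and the code was tested on simulated data.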

Additional observations from a re-analysis of the deposited data

How the results depend on the processing

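The 2 members that were higher and the 1 that was lower on Myogel were the same genes, BST2, IFI44L and GBP2, under quantile normalization, loess centring and a median log2 ratio of 0. The count of higher members was 1, BST2, with an offset of 16, with an offset of 50 and with the filter on low signal. BST2 passed that filter only through its Myogel value, so the filter was no check on it. The count of higher members was 0 when a difference of 100 linear units was required, against 0.445% of all genes. The count of lower members was 9 with FC 1.2, against 30.8% of all genes, and 0 with FC 2. When any probe set could count, 5 were higher and 5 were lower, against 22.1% and 36.2% of all genes, without matching for signal. With the mean over probe sets 3 were higher (BST2, IFI44L and IFIT2) and 1 was lower, which was OAS3 and not GBP2. Shares over all genes were not computed for the scalings, the offsets, FC 2 or the mean over probe sets. Those counts therefore cannot be set against the array as a whole. The median log2 FC of the members was -0.14 as deposited and -0.037 with the median log2 ratio set to 0, and lay between -0.16 and -0.11 under the other alternatives for it. BST2, IFI44L and GBP2 kept their sign in every alternative that gave them a value. Most of these alternatives could not have changed it. An offset cannot change a sign, and neither can a mean over probe sets for BST2 and IFI44L, which have 1 probe set each. The filter on low signal left the values of BST2 and GBP2 as they were. Leaving out _x_at, _s_at and _a_at probe sets did so for BST2, IFI44L and GBP2. The shift that sets the median log2 ratio to 0 was smaller than their log2 FCs. Among members within FC 1.5 the sign changed for IFIH1, ISG20, OAS1, OAS2 and SP110 with the mean over probe sets, for IFIH1 and OAS2 with the median log2 ratio set to 0, and for IFI44 and PARP9 without _x_at, _s_at and _a_at probe sets. Leaving out _x_at, _s_at and _a_at probe sets left 29 of 39 members. A value near the floor fixes no fold change, which limits BST2 and IFI44L, and with 1 array per surface the spread between cultures was not measured.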
